A study of Mus musculus with 16 samples.

Results

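The 10 transcription factors that hold the B cell and germinal center (GC) programs, Bcl6, Pax5, Ebf1, Foxo1, Pou2af1, Pou2f2, Ikzf1, Ikzf3, Foxp1 and Ets1, were followed through 4 subpopulations of GC B cells that express the proto-oncogene cMyc. They were chosen by name from knowledge of B cells, with earlier results of these data known. They make up 10 of the 51912 genes in the deposited table. The genes tested were the 12505 whose normalized counts averaged 10 or more over the 16 libraries, and all 10 factors were among them. The cells came from the spleens of cMyc gfp/gfp mice on a C57BL/6J background, in which both alleles of the endogenous locus encode a GFP-cMyc fusion protein. Male and female animals, 6 to 15 weeks old, had received sheep red blood cells (SRBC) in the peritoneum 7 days before the sort. Splenic B cells enriched by CD43 depletion were gated as B220+ CD38low CD95+ cMycGFP+, and within that gate cMyc+prePB were the CD69hi cells (prePB, plasmablast precursors). The cMyc+early cells were CD23hi and CD21/35hi, while cMyc+lateCD23int and cMyc+lateCD23lo carried intermediate and low CD23, and dark zone cells were gated out of these 3. Each subpopulation had 4 libraries, and every one of the 16 libraries carried the reporter allele, the immunization and the cMyc gate, so there were no cMyc-negative cells to compare with.

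GC B cells mutate their antibody genes while they divide, and cells that receive T cell help in the light zone turn on cMyc for a short time before they return to the cycle, leave as memory cells or become plasmablasts. BCL6 is the repressor that sets up the GC state and holds back the plasma cell program, whereas PAX5, EBF1, the Ikaros family, FOXO1, ETS1, FOXP1 and the octamer factor OCT2 with its coactivator OBF1 (encoded by Pou2f2 and Pou2af1) keep B lineage genes active or guard the time of differentiation. The comparison of the 4 subpopulations addresses how far these factors differ between cMyc+ cells that are taking different routes.

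Each library held between 19812080 and 25795815 recovered reads, so counting error was small for the factors and the spread between libraries set their precision. Normalized counts are read counts that the authors divided by 1 size factor per library. Counting error was not small for genes with few reads. Among these were Klf2, with at most 6.47 normalized counts in cMyc+lateCD23lo, and Prdm1, with at most 7.96 in cMyc+early. All 9 GC B cell markers, among them Ms4a1, Cd79a, Fas, S1pr2, Mybl1, Rgs13 and Mki67, exceeded 100 normalized counts in at least 1 library of each subpopulation. Their summed counts ran from 96684 to 146231 in cMyc+prePB and from 118376 to 246215 in the other subpopulations. Of 8 T cell markers, Lck, which B cells can also express, reached 6839 and Trac 110, while Cd3e stayed at or below 30.7. The 7 myeloid markers summed to between 0.827 and 1173, with Lyz2 contributing up to 968, and the 5 stromal markers to at most 78.6. Among the 5 plasma cell markers Jchain and Xbp1 were high, yet Sdc1 and Tnfrsf17 did not exceed 108 and 24.3. Their sum ran from 36387 to 110788 in cMyc+prePB and from 22716 to 29243 in cMyc+early. It ran from 30564 to 58707 in cMyc+lateCD23int and from 55349 to 89658 in cMyc+lateCD23lo. Replicate 1 gave the highest cMyc+prePB sum. Its Jchain count was 104886, against 31885, 43640 and 41363 in cMyc+prePB replicates 2, 3 and 4. Jchain, the joining chain of secreted antibodies, was lower in cMyc+early than in cMyc+lateCD23lo (log2 fold change −1.44, SE 0.29, adjusted p 0.039 by limma). The 5 erythroid markers, mainly globins, summed to between 165 and 4954. What part these markers had in the differences below was not tested. In such bulk samples, fewer cells of a type and less RNA per cell cannot be told apart.

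The windows just upstream of the RefSeq gene starts (GRCm38.p6, 250 bases) were found for 8 of the 10 factors, in 13 windows. They were searched on both strands for short motifs of the factors themselves, namely the octamer ATGCAAAT, the forkhead core TGTTTAC, the ETS core CGGAAG, the EBF1 motif (TCCC, any 2 bases, GGGA), the Ikaros core TGGGAA and the BCL6 motif TTCCTAGAA, of which the EBF1 and Ikaros motifs share the letters GGGA. The 3 windows printed here, out of the 13, are 1 each from Bcl6, Ebf1 and Foxo1. Each is written 5′ to 3′ on the gene's strand, with motif matches in capitals.
Bcl6, chr16:23988853-23989102, minus strand: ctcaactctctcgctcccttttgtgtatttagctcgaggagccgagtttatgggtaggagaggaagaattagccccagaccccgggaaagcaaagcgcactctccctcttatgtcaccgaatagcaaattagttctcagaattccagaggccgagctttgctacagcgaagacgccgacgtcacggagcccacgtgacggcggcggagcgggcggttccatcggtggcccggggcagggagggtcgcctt
Ebf1, chr11:44619978-44620227, plus strand: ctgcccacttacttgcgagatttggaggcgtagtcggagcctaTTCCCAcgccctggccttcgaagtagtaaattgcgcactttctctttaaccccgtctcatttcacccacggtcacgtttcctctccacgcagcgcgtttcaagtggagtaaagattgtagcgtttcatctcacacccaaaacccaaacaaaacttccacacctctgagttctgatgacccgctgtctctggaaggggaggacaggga
Foxo1, chr3:52268087-52268336, plus strand: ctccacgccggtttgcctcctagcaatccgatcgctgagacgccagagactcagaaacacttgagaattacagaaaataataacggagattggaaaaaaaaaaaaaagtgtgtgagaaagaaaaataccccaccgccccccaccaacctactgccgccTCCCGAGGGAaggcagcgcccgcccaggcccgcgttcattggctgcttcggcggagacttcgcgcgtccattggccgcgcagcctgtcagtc
The Bcl6 window, which ends at the start of the annotated gene, held no match. The Ebf1 window, at a start site 2911 bases inside the annotated gene, held 1 Ikaros match, a motif found in 21.59% of all 32851 promoter windows. The other Ebf1 window, at a start site 783 bases inside the annotated gene, held no match. The Foxo1 window held 1 EBF1 match, found in 0.78% of all windows. The Ikaros and EBF1 motifs each lay in 1 of the 13 windows. Of the other motifs, the ETS core lay in 1 Pou2f2 window (13.59% of all windows), and the octamer, forkhead and BCL6 letters lay in none of the 13 windows, against 1.6%, 3.17% and 0.35% of all windows. The GC content of the 13 windows ran from 40.0% to 82.0% with a median of 56.0%, against 52.4% for all windows.

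All 10 factors were expressed in every library, above the level of most genes. On the scale of mean normalized counts per kb of exon, Pou2af1 stood highest at 3042 ± 480 (SD over 16 libraries), followed by Ets1 at 1648 ± 445. Ikzf1 stood at 783 ± 140 and Ebf1 at 735 ± 152. Ikzf3 was at 500 ± 136, Foxp1 at 445 ± 139 and Bcl6 at 341 ± 109. The lowest levels per kb were those of Pax5 at 321 ± 53.8, Pou2f2 at 287 ± 36.8 and Foxo1 at 145 ± 46.8. The median of 12471 genes with a known length was 79.9 per kb, and Pou2af1 ranked 535th and Foxo1 4773rd among them. Not every step in this order held within libraries. Pou2af1 exceeded Ets1 in 15 of 16 libraries, while Ets1 over Ikzf1 and Pou2f2 over Foxo1 held in 16 of 16. Ikzf1 and Ebf1 lay within their spread, the former being higher in 10 of 16 libraries, as did Ikzf3 and Foxp1 (10 of 16) and Bcl6 and Pax5 (Bcl6 higher in 7 of 16).

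**Figure D1:**
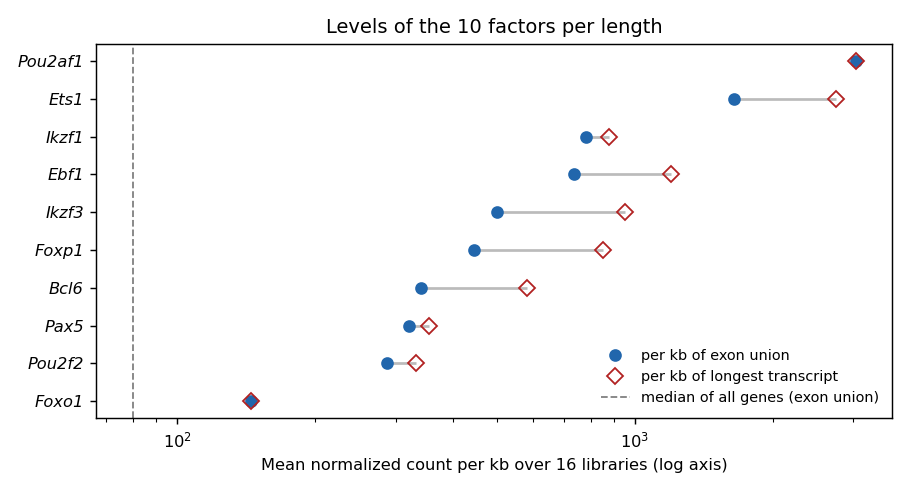
Mean normalized count per kb over 16 libraries (x axis, logarithmic) for each factor (y axis), with filled circles for the length of all exons joined, open diamonds for the longest transcript, and a dashed line at the median of all genes. Pou2af1 leads and Foxo1 is last on either length, and the diamonds move Foxp1, Ikzf3, Bcl6, Ebf1 and Ets1 furthest to the right.

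Levels differed little between libraries of a subpopulation compared with most genes. The residual SD within subpopulations had a median of 0.29 on the log2 scale over the 10 factors, against 0.62 over all 12505 genes, where low counts weigh in. Pou2af1 varied least (0.15), and 1.07% of all genes varied less than it did. Foxo1, Ikzf3 and Foxp1 varied most, at 0.46, 0.42 and 0.41.

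None of the 10 factors passed the test in any comparison of subpopulations (limma on log2 of the normalized count + 1 without a replicate block, Benjamini-Hochberg adjusted p under 0.05 over 12505 genes). With a block for the replicate number, limma called Bcl6, Ets1 or Foxp1 in some comparisons, as given in the last section. In the multigroup comparison of all 4 subpopulations, 0 of 10 passed where 0.408% of all genes did, and edgeR and DESeq2 on the recovered reads also called 0. At an unadjusted p under 0.05, 4 of the 10 reached the limma threshold there, Bcl6, Pou2af1, Foxp1 and Ets1, against 10.2% of all genes. The adjusted p was 0.42 for Bcl6, 0.35 for Pou2af1, 0.43 for Foxp1 and 0.31 for Ets1 by limma, and between 0.57 and 0.9 for the other 6. Comparisons that share a subpopulation share its libraries and are not independent of each other.

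Between single subpopulations the limma counts were likewise 0 of 10. The percentage of all genes called was 0.192 for cMyc+prePB against cMyc+early, 0.144 for cMyc+prePB against cMyc+lateCD23int and 0.264 for cMyc+prePB against cMyc+lateCD23lo. It was 0.28 for cMyc+early against cMyc+lateCD23lo, and 0.008 both for cMyc+early against cMyc+lateCD23int and for cMyc+lateCD23int against cMyc+lateCD23lo. In the same order, 3, 4, 2, 1, 0 and 1 of the 10 factors had an unadjusted limma p under 0.05, against 8.58%, 8.77%, 12.7%, 10.3%, 3.71% and 6.28% of all genes. The edgeR test without the block called 0 of the 10 in each. DESeq2 called 1 in cMyc+prePB against cMyc+lateCD23lo, Bcl6, and 1 in cMyc+early against cMyc+lateCD23lo, Pou2af1, and 0 in the other 4.

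**Figure D2:**
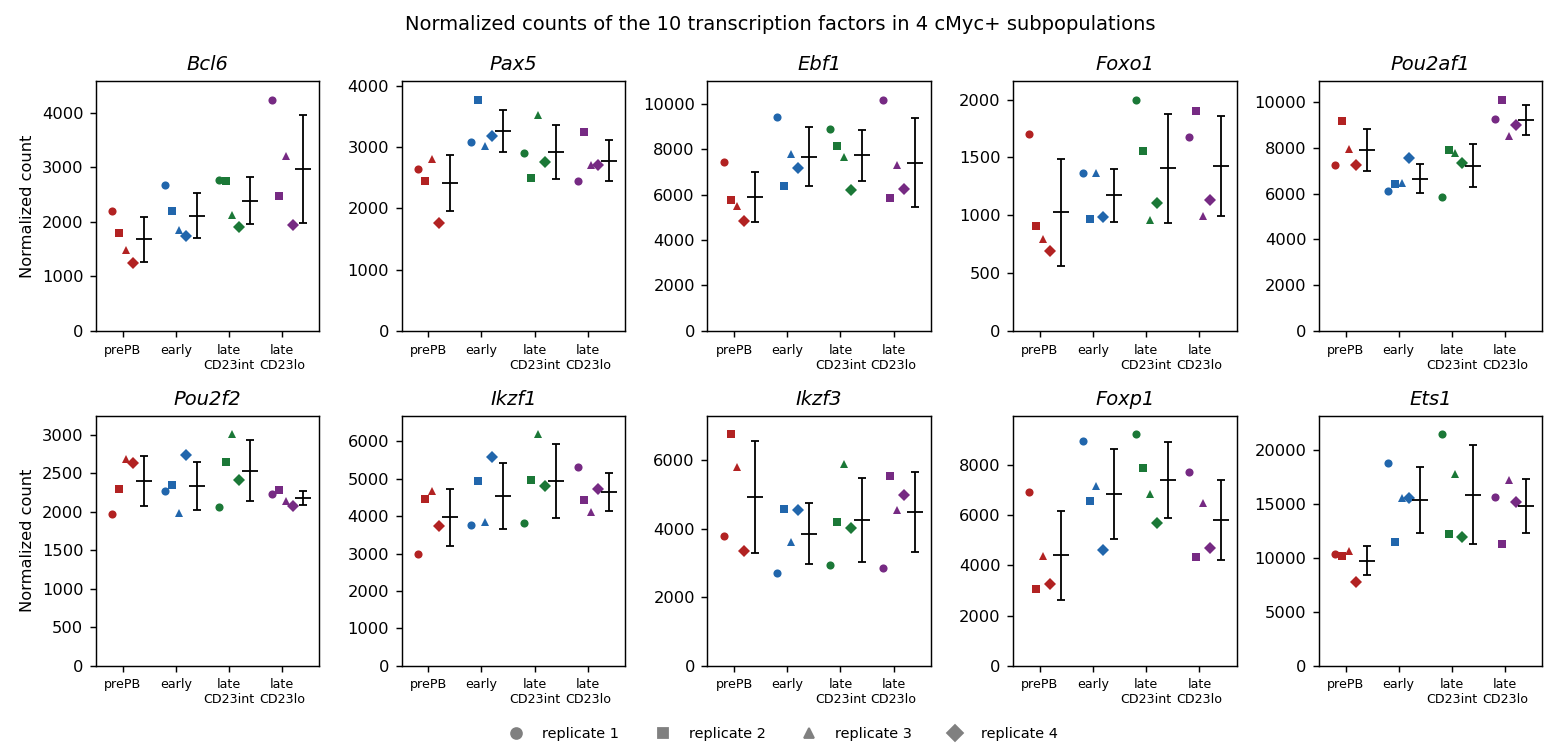
Normalized counts (y axis, from 0) of the 10 factors in the 4 subpopulations (x axis), with 1 marker per library shaped by replicate number and the mean ± SD (n = 4) drawn in black beside them. The 4 cMyc+prePB libraries of Ets1 lie below the other 12, and for Pou2af1 the 4 cMyc+lateCD23lo libraries lie above those of cMyc+early and cMyc+lateCD23int.

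The clearest separation belonged to Ets1, an ETS family factor known to restrain the differentiation of B cells into plasma cells (GRCm38 chromosome 9, 32636221 to 32757820, plus strand). Its normalized counts in cMyc+prePB were 10420, 10179, 10637 and 7746 (mean 9746 ± 1346 SD, n = 4). In cMyc+early they were 18869, 11456, 15624 and 15610 (15390 ± 3038, n = 4). In cMyc+lateCD23int they were 21515, 12205, 17822 and 11994 (15884 ± 4623, n = 4), and in cMyc+lateCD23lo 15627, 11313, 17281 and 15183 (14851 ± 2526, n = 4). All 4 cMyc+prePB libraries lay below all other 12, which was so for 0.264% of the genes tested, while the other 3 subpopulations overlapped. The log2 fold change of cMyc+prePB against the other 3 was −0.64 (SE 0.16, 95% interval −0.98 to −0.30, or 0.642-fold), with an adjusted p of 0.12 by limma and of 0.013 by DESeq2, in a range of 0.013 to 0.42 over all alternatives. Between cMyc+early and cMyc+lateCD23lo the difference was 0.05 (SE 0.20, 95% interval −0.38 to 0.47), with an adjusted p of 0.96 by limma.

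Bcl6, the GC repressor (chromosome 16, 23965052 to 23988852, minus strand), had its lowest mean in cMyc+prePB and its highest in cMyc+lateCD23lo. Its counts were 2204, 1796, 1476 and 1238 in cMyc+prePB (1679 ± 418, n = 4) and 2672, 2194, 1853 and 1739 in cMyc+early (2114 ± 419, n = 4). They were 2762, 2742, 2126 and 1911 in cMyc+lateCD23int (2385 ± 432, n = 4) and 4242, 2476, 3198 and 1947 in cMyc+lateCD23lo (2966 ± 993, n = 4). Neighbouring subpopulations in this order overlapped, and 6 of the 12 other libraries lay above the highest cMyc+prePB library. Against the other 3, cMyc+prePB had a log2 fold change of −0.55 (SE 0.20, 95% interval −0.96 to −0.14), with an adjusted p of 0.28 by limma. Over all alternatives of limma, edgeR and DESeq2 the adjusted p ranged from 0.039 to 0.66, and it passed only with the replicate block. The widest gap, cMyc+prePB against cMyc+lateCD23lo, was −0.79 (SE 0.24, 95% interval −1.30 to −0.29, or 0.577-fold), with an adjusted p of 0.18 by limma and 0.048 by DESeq2. With the replicate block, limma and edgeR also called this gap. Between cMyc+early and cMyc+lateCD23lo it was −0.45 (SE 0.24, 95% interval −0.95 to 0.05), with an adjusted p of 0.53 by limma.

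Foxp1, a forkhead factor that limits plasma cell formation and is known to decline as naive cells enter the GC (chromosome 6, 98925338 to 99522721, minus strand), had counts of 6919, 3072, 4367 and 3270 in cMyc+prePB (4407 ± 1769, n = 4). They were 8967, 6579, 7194 and 4615 in cMyc+early (6839 ± 1795, n = 4) and 9245, 7874, 6873 and 5692 in cMyc+lateCD23int (7421 ± 1508, n = 4). In cMyc+lateCD23lo they were 7738, 4327, 6478 and 4702 (5811 ± 1590, n = 4). Replicate 1 was the highest library of each subpopulation, and the cMyc+prePB replicate 1 lay among the libraries of the others. Compared with the other 3, cMyc+prePB differed by a log2 fold change of −0.64 (SE 0.21, 95% interval −1.08 to −0.19), with an adjusted p of 0.25 by limma. Over all alternatives of limma, edgeR and DESeq2 the adjusted p of this difference ranged from 0.014 to 0.61. It passed only with the replicate block, by both limma and edgeR. Against cMyc+lateCD23int alone the log2 fold change was −0.81 (SE 0.26, or 0.571-fold), with an adjusted p of 0.34 by limma. The difference of cMyc+early from cMyc+lateCD23lo was 0.24 (SE 0.26, adjusted p 0.79 by limma).

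Pax5, which fixes B cell identity and must be shut off in plasma cells (chromosome 4, 44524757 to 44710487, minus strand), had counts of 2646, 2445, 2802 and 1758 in cMyc+prePB (2413 ± 460, n = 4) and 3085, 3778, 3024 and 3176 in cMyc+early (3266 ± 347, n = 4). They were 2907, 2504, 3528 and 2759 in cMyc+lateCD23int (2924 ± 436, n = 4) and 2451, 3246, 2703 and 2712 in cMyc+lateCD23lo (2778 ± 335, n = 4). All 4 cMyc+early libraries lay above all 4 cMyc+prePB libraries, and the other pairs overlapped. For cMyc+prePB the log2 fold change was −0.32 (SE 0.14, adjusted p 0.39 by limma) against the other 3 and −0.45 (SE 0.17, adjusted p 0.45 by limma) against cMyc+early. Between cMyc+early and cMyc+lateCD23lo it was 0.24 (SE 0.17, adjusted p 0.65 by limma).

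Ebf1, which opens B lineage genes together with PAX5 (chromosome 11, 44617317 to 45008091, plus strand), had counts of 7434, 5757, 5490 and 4847 in cMyc+prePB (5882 ± 1103, n = 4) and 9395, 6358, 7789 and 7146 in cMyc+early (7672 ± 1289, n = 4). They were 8899, 8116, 7643 and 6214 in cMyc+lateCD23int (7718 ± 1129, n = 4) and 10177, 5851, 7298 and 6250 in cMyc+lateCD23lo (7394 ± 1953, n = 4). The cMyc+prePB libraries were low apart from replicate 1, and the groups overlapped. In cMyc+prePB against the other 3 the log2 fold change was −0.37 (SE 0.15, adjusted p 0.38 by limma), and that of cMyc+early against cMyc+lateCD23lo was 0.07 (SE 0.19, adjusted p 0.92 by limma).

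Foxo1, a forkhead factor held in check by PI3K signaling and needed for the dark zone program (chromosome 3, 52268336 to 52353221, plus strand), was the most variable of the 10. Its counts were 1707, 910, 798 and 689 in cMyc+prePB (1026 ± 463, n = 4) and 1367, 968, 1368 and 982 in cMyc+early (1171 ± 226, n = 4). They were 2000, 1556, 957 and 1109 in cMyc+lateCD23int (1406 ± 471, n = 4) and 1673, 1901, 995 and 1130 in cMyc+lateCD23lo (1425 ± 432, n = 4). A single cMyc+prePB library, replicate 1, lay among the highest of all, and the groups overlapped throughout. For Foxo1 the log2 fold change of cMyc+prePB against the other 3 was −0.42 (SE 0.24, adjusted p 0.54 by limma), and that of cMyc+early against cMyc+lateCD23lo was −0.25 (SE 0.30, adjusted p 0.81 by limma).

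Ikzf1, encoding Ikaros (chromosome 11, 11685003 to 11772926, plus strand), had counts of 2987, 4471, 4681 and 3740 in cMyc+prePB (3970 ± 769, n = 4) and 3773, 4947, 3846 and 5579 in cMyc+early (4536 ± 879, n = 4). They were 3808, 4969, 6195 and 4800 in cMyc+lateCD23int (4943 ± 980, n = 4) and 5313, 4445, 4108 and 4731 in cMyc+lateCD23lo (4649 ± 510, n = 4). The groups overlapped, and the log2 fold change of cMyc+prePB against the other 3 was −0.25 (SE 0.15, adjusted p 0.55 by limma). Between cMyc+early and cMyc+lateCD23lo it was −0.05 (SE 0.18, adjusted p 0.95 by limma), a sign that turned on rescaling each library to 1 common total (0.0019) or on quantile normalization (0.03).

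Ikzf3, encoding Aiolos, which acts in mature B cells (chromosome 11, 98464902 to 98546031, minus strand), unlike Ikzf1 had its highest mean in cMyc+prePB. Its counts there were 3781, 6764, 5807 and 3335 (4922 ± 1633, n = 4), against 2691, 4569, 3598 and 4537 in cMyc+early (3849 ± 893, n = 4). They were 2935, 4196, 5906 and 4035 in cMyc+lateCD23int (4268 ± 1227, n = 4) and 2842, 5544, 4555 and 4999 in cMyc+lateCD23lo (4485 ± 1168, n = 4). The cMyc+prePB libraries held both a high pair and a low pair, which spanned most of the range of the other groups. The log2 fold changes were 0.21 (SE 0.22, adjusted p 0.75 by limma) for cMyc+prePB against the other 3 and −0.21 (SE 0.27, adjusted p 0.83 by limma) for cMyc+early against cMyc+lateCD23lo.

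The octamer pair differed from this pattern. Pou2af1, which encodes the coactivator OBF1 needed to form GCs (chromosome 9, 51213708 to 51240080, plus strand), had counts of 7241, 9196, 7972 and 7241 in cMyc+prePB (7912 ± 923, n = 4) and 6132, 6423, 6482 and 7573 in cMyc+early (6653 ± 632, n = 4). They were 5856, 7900, 7797 and 7356 in cMyc+lateCD23int (7227 ± 944, n = 4) and 9257, 10118, 8524 and 8988 in cMyc+lateCD23lo (9222 ± 670, n = 4). All 4 cMyc+lateCD23lo libraries lay above all cMyc+early and cMyc+lateCD23int libraries and overlapped with cMyc+prePB. The log2 fold change of cMyc+early against cMyc+lateCD23lo was −0.47 (SE 0.13, 95% interval −0.75 to −0.19, or 0.721-fold), with an adjusted p of 0.20 by limma and 0.047 by DESeq2, in a range of 0.047 to 0.41 over all alternatives. That of cMyc+prePB against the other 3 was 0.05 (SE 0.11, adjusted p 0.89 by limma), a sign that turned without cMyc+prePB replicate 2 (−0.02).

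Pou2f2, encoding OCT2, the DNA-binding partner of OBF1 (chromosome 7, 25087344 to 25179726, minus strand), was among the steadiest. Its counts were 1976, 2302, 2684 and 2632 in cMyc+prePB (2399 ± 328, n = 4) and 2266, 2342, 1978 and 2740 in cMyc+early (2332 ± 314, n = 4). They were 2059, 2653, 3009 and 2416 in cMyc+lateCD23int (2534 ± 400, n = 4) and 2236, 2279, 2139 and 2074 in cMyc+lateCD23lo (2182 ± 92.8, n = 4). All 4 groups overlapped, and the log2 fold change of cMyc+prePB against the other 3 was 0.03 (SE 0.13, 95% interval −0.25 to 0.31, adjusted p 0.96 by limma). Between cMyc+early and cMyc+lateCD23lo it was 0.09 (SE 0.16, 95% interval −0.25 to 0.42, adjusted p 0.90 by limma).

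Most but not all of the factors had lower values in cMyc+prePB than elsewhere, and limma without a replicate block called none of them. The median log2 fold change of cMyc+prePB against the other 3 was −0.34 over the 10 factors and 0.003 over all genes, and 7 of the 10 were negative. None passed the adjusted threshold by limma or edgeR without the block, where 0.312% of all genes passed by limma, and DESeq2 called Ets1. With the block, limma and edgeR each called Bcl6, Ets1 and Foxp1. At an unadjusted limma p under 0.05, 5 of the 10 were lower, Bcl6, Pax5, Ebf1, Foxp1 and Ets1, and none higher, against 6.67% of all genes lower. The mean of cMyc+prePB was the lowest of the 4 on the log2 scale for 7 of the 10, the exceptions being Pou2af1, Pou2f2 and Ikzf3, while 28.5% of all genes were lowest there. The 9 GC B cell markers moved with the factors in this comparison, with a median of −0.37 and 7 of 9 negative. Of these markers 6 had an unadjusted limma p under 0.05 (11.1% of all genes) and 0 were called. Their part in the values of the factors was not tested. Between cMyc+early and cMyc+lateCD23lo the 10 divided evenly, with 5 negative and a median of −0.0015 against −0.0053 over all genes.

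**Figure D3:**
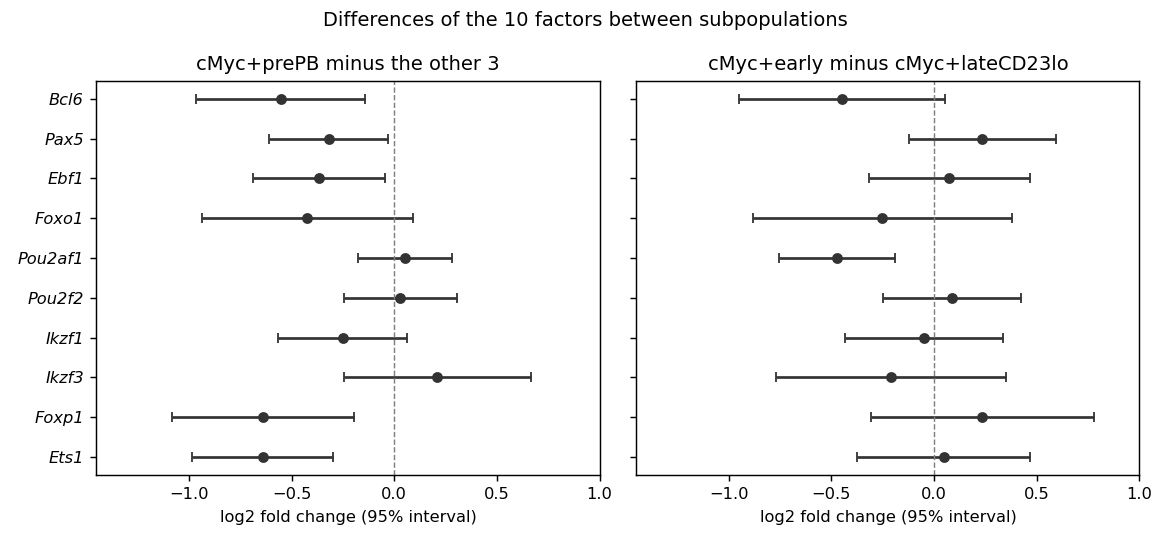
Log2 fold change with its 95% interval (x axis) for each factor (y axis), for cMyc+prePB minus the other 3 subpopulations and for cMyc+early minus cMyc+lateCD23lo. On the left the unadjusted intervals of Bcl6, Pax5, Ebf1, Foxp1 and Ets1 lie below 0, and on the right that of Pou2af1 does. No adjusted p was under 0.05 by limma without a replicate block.

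Some factors moved together from library to library. Over the 16 libraries Pearson's r was 0.88 between Ebf1 and Foxp1, 0.79 between Bcl6 and Ebf1, 0.77 between Ebf1 and Ets1 and 0.68 between Bcl6 and Foxo1. Among the others, Pou2f2 and Ikzf1 had an r of 0.67 and Pou2af1 and Ikzf3 of 0.57, while Ikzf3 ran against Ebf1 and Foxp1 with r of −0.60 for both. These are descriptions, since libraries share subpopulations and the authors' scaling, and a difference between subpopulations enters r. The libraries numbered 1 were the highest of their group in 4 of 4 groups for Bcl6, Ebf1 and Foxp1, and the lowest in 3 of 4 for Pou2af1, Ikzf1 and Ikzf3. Those 4 libraries held 23032655, 23717329, 25111906 and 23612597 normalized counts in total, against 20562225 to 24208384 in the other 12. With every library rescaled to the same total, the log2 fold changes of cMyc+prePB against the other 3 were −0.51 for Bcl6, −0.32 for Ebf1 and −0.59 for Foxp1. Since every group held 1 library numbered 1, these group differences do not bear on what those libraries shared, which was not tested.

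**Figure D4:**
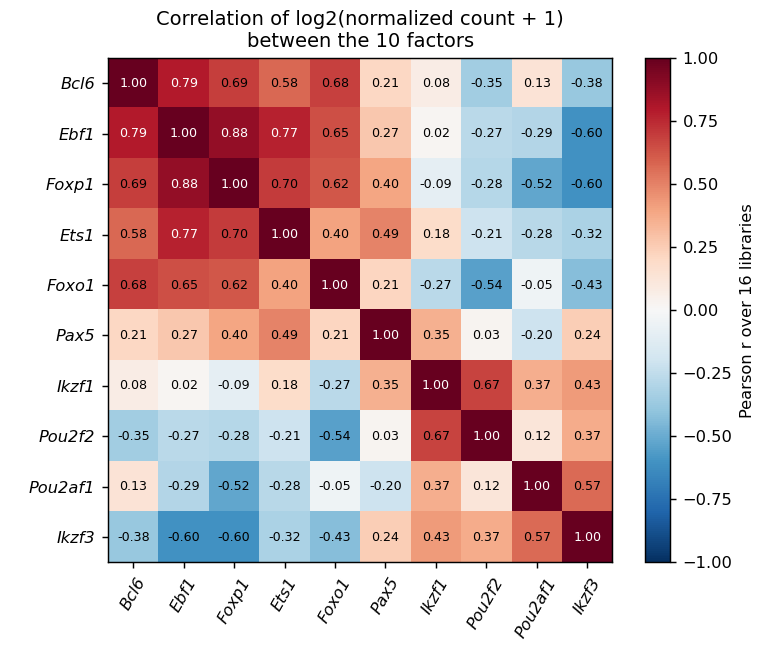
Pearson's r of log2(normalized count + 1) over the 16 libraries for each pair of factors, on a color scale from −1 (blue) to 1 (red). Bcl6, Ebf1, Foxp1, Ets1 and Foxo1 form a block of positive r, and Ikzf3 and Pou2af1 are negative against Ebf1 and Foxp1.

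Genes whose levels followed a factor most closely were sought among 8669 genes with a mean of at least 100, over the 16 libraries. Closest to Bcl6 were Mgea5 (r = 0.90, Spearman's rho 0.93), which encodes the enzyme that removes O-GlcNAc from proteins, Lxn (r = 0.89, rho 0.91) and Zbtb4 (r = 0.89, rho 0.84). Without the 2 libraries farthest from the Bcl6 median, r was 0.87, 0.88 and 0.78. Mean counts of Lxn were 1172, 1545, 1828 and 2123 in cMyc+prePB, cMyc+early, cMyc+lateCD23int and cMyc+lateCD23lo, the order seen for Bcl6. Mgea5 had the same order, whereas Zbtb4 had means of 384, 537, 533 and 787. Because these genes were picked by correlation with Bcl6 over the same libraries, a shared order is no separate result. The nearest gene to Ebf1 was the antiproliferative gene Btg1 (r = 0.94), to Foxp1 the G protein regulator Rgs2 (r = 0.94), and to Ets1 the B cell scaffold Bank1 (r = 0.87). Pax5 was nearest to Herc4 (r = 0.83, or 0.64 without the 2 outermost libraries) and Foxo1 to Pnisr (r = 0.88). Pou2af1 paired with the peroxisomal transporter Abcd3 (r = 0.84), Pou2f2 with the channel Trpv2 (r = 0.87), Ikzf1 with the adaptor Dok3 (r = 0.84, or 0.62 without the 2 outermost libraries) and Ikzf3 with the replication helicase subunit Mcm6 (r = 0.84).

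Partners, targets and rivals of the factors, 86 genes in all of which 75 were tested, were described from lists chosen by known function. Earlier results of these data were known when the lists were chosen. Among 9 corepressors and partners of BCL6, including Ncor1, Hdac3 and Bcor, 0 passed in any comparison by limma, and 2 had an unadjusted p under 0.05 in cMyc+prePB against the other 3, where 11.1% of all genes did. The median log2 fold change there was −0.03, against 0.003 over all genes. Ncor1, a scaffold of repressor complexes, had mean counts of 2620 ± 438, 3281 ± 619, 2930 ± 655 and 3309 ± 619 (n = 4 each) in cMyc+prePB, cMyc+early, cMyc+lateCD23int and cMyc+lateCD23lo. The methyltransferase Ezh2, the most abundant of the list, had 5097 ± 1436, 4682 ± 1131, 4368 ± 987 and 6400 ± 391 in the same order.

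Of 16 genes that BCL6 is known to repress, 1 rose in cMyc+prePB against the other 3 and 0 fell by limma, where 0.312% of all genes were called. That gene was Ccnd2, encoding cyclin D2, which drives entry into the cycle. Its counts were 6412, 13640, 12710 and 11288 in cMyc+prePB (11012 ± 3216, n = 4), 4280, 6965, 6611 and 6656 in cMyc+early (6128 ± 1242, n = 4), 3158, 3761, 4339 and 3436 in cMyc+lateCD23int (3673 ± 508, n = 4) and 1999, 3325, 2300 and 2106 in cMyc+lateCD23lo (2433 ± 608, n = 4). The means of Ccnd2 ran in the order opposite to those of Bcl6, and cMyc+prePB lay above both late groups in every library. Whether Bcl6 levels bear on those of Ccnd2 was not tested. It was 2.83-fold higher (SE 0.19 on the log2 scale, adjusted p 0.00056 by limma) than in the other 3, and the log2 fold change was 1.34 (SE 0.23, adjusted p 0.013 by limma) for cMyc+early against cMyc+lateCD23lo. The second call was lost without cMyc+early replicate 4, cMyc+lateCD23lo replicate 3 or cMyc+lateCD23lo replicate 4, with adjusted p of up to 0.056.

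Gpr183, the receptor EBI2 that draws B cells out of the follicle center, also rose in cMyc+early against cMyc+lateCD23lo. Its counts were 2410, 1638, 1872 and 1447 in cMyc+early (1842 ± 417, n = 4), 1631, 933, 1683 and 1613 in cMyc+prePB (1465 ± 356, n = 4), 1234, 1177, 936 and 843 in cMyc+lateCD23int (1047 ± 188, n = 4) and 697, 329, 428 and 621 in cMyc+lateCD23lo (519 ± 170, n = 4). The cMyc+lateCD23lo libraries lay below those of every other group. The log2 fold change of cMyc+early against cMyc+lateCD23lo was 1.86 (SE 0.26, adjusted p 0.0035 by limma). That of cMyc+prePB against cMyc+lateCD23lo was 1.52 (SE 0.26, adjusted p 0.015 by limma), a call lost without cMyc+prePB replicate 3 or 4 or cMyc+lateCD23lo replicate 2 or 3 (up to 0.062). Over the 16 genes the median in cMyc+early against cMyc+lateCD23lo was 0.44 against −0.0053 for all genes. By limma 2 were called higher and 0 lower, where 0.28% of all genes were called. Prdm1, encoding the plasma cell regulator Blimp1 and the best known BCL6 target, had counts of 6.45, 119, 9.02 and 6.31 in cMyc+prePB, at most 7.96 in cMyc+early and between 10.2 and 133 in the late groups, and did not pass by limma (adjusted p 0.089 in cMyc+early against cMyc+lateCD23lo).

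Of 14 genes that PAX5 or EBF1 are known to activate, 10 were lower in cMyc+prePB than in the other 3 by sign. Their median was −0.43 against 0.003 for all genes. By limma 1 fell, where 0.312% of all genes were called. This was Id3, an inhibitor of E proteins, with counts of 1672, 1360, 1679 and 1079 in cMyc+prePB (1448 ± 287, n = 4), 3677, 3296, 3407 and 1875 in cMyc+early (3064 ± 808, n = 4), 4921, 3624, 3219 and 2908 in cMyc+lateCD23int (3668 ± 885, n = 4) and 4332, 2231, 2801 and 1751 in cMyc+lateCD23lo (2779 ± 1121, n = 4). Every cMyc+prePB library lay below every other library. Its log2 fold change was −1.09 (SE 0.22, adjusted p 0.035 by limma). The call was lost without any one of 9 libraries, namely cMyc+prePB replicates 2, 3 and 4, cMyc+early replicates 1, 2 and 3, cMyc+lateCD23int replicates 1 and 2 and cMyc+lateCD23lo replicate 3, with adjusted p of up to 0.19. Cd79a and Cd79b, which form the signaling part of the B cell receptor, had log2 fold changes of −0.35 (SE 0.12, adjusted p 0.26 by limma) and −0.60 (SE 0.24, adjusted p 0.34 by limma) in cMyc+prePB against the other 3. The adaptor Blnk stood at 11324 ± 1206, 11149 ± 1487, 10954 ± 357 and 10974 ± 851 (n = 4 each) in cMyc+prePB, cMyc+early, cMyc+lateCD23int and cMyc+lateCD23lo.

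Of 13 genes that FOXO1 is known to activate, 1 rose and 0 fell in cMyc+early relative to cMyc+lateCD23lo by limma, where 0.28% of all genes were called. The median was −0.09 against −0.0053 for all genes. In cMyc+prePB against the other 3 the median was −0.20 against 0.003. The gene that rose was Klf2, a quiescence factor, which was low throughout. Its counts were 153, 61.9, 45.2 and 56.9 in cMyc+early, 41.9, 22.3, 14.4 and 9.02 in cMyc+prePB, 78.6, 9.16, 43.6 and 25.1 in cMyc+lateCD23int and 6.47, 0, 5.1 and 1.02 in cMyc+lateCD23lo. Its difference between cMyc+early and cMyc+lateCD23lo had an adjusted p of 0.039 by limma, which was lost without any one of 10 libraries, cMyc+prePB replicates 2 and 3, all 4 of cMyc+early, cMyc+lateCD23int replicate 4 and cMyc+lateCD23lo replicates 2, 3 and 4 (up to 0.13). Gpr183 is also on the list of 5 naive or memory B cell markers. The summed counts of that list ran from 4487 to 8879 in cMyc+early, from 3255 to 4556 in cMyc+prePB, from 2891 to 5566 in cMyc+lateCD23int and from 2493 to 2934 in cMyc+lateCD23lo, and their part in the Klf2 and Gpr183 results was not tested. The most abundant gene of the FOXO1 list, the stress sensor Sesn3, stood at 764 ± 159, 949 ± 222, 718 ± 155 and 1022 ± 298 (n = 4 each) in cMyc+prePB, cMyc+early, cMyc+lateCD23int and cMyc+lateCD23lo.

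**Figure D5:**
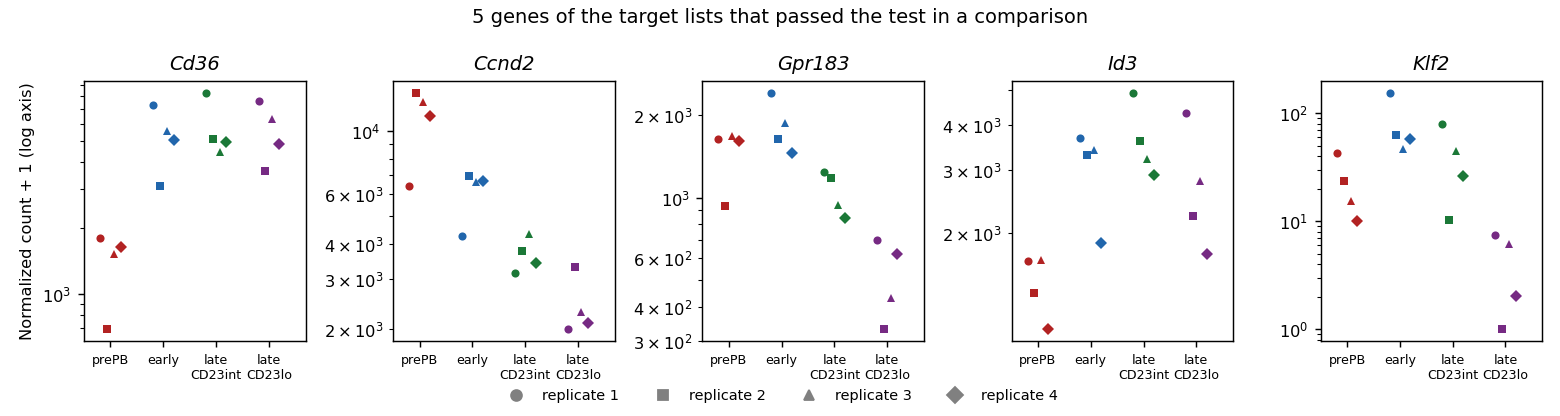
Normalized count + 1 (y axis, logarithmic, with its own range in each panel) in the 4 subpopulations (x axis) for 5 genes of the target lists that passed the limma test, 1 marker per library shaped by replicate number. The 4 cMyc+prePB libraries lie below the other 12 for Cd36 and Id3, and Gpr183 is lowest in cMyc+lateCD23lo.

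Of 5 octamer partners and targets, 1 fell in cMyc+prePB against the other 3 by limma, where 0.312% of all genes were called. Cd36, a scavenger receptor whose gene is a direct OCT2 target in B cells, had counts of 1795, 688, 1522 and 1628 in cMyc+prePB (1408 ± 493, n = 4), 7307, 3102, 5533 and 5047 in cMyc+early (5247 ± 1729, n = 4), 8290, 5086, 4472 and 4953 in cMyc+lateCD23int (5700 ± 1746, n = 4) and 7638, 3652, 6312 and 4835 in cMyc+lateCD23lo (5609 ± 1736, n = 4). No cMyc+prePB library reached the range of the other 3 groups, which overlapped fully. The log2 fold change against the other 3 was −2.005 (SE 0.26, or 0.249-fold, adjusted p 0.00064 by limma), beside 0.03 for Pou2f2 and 0.05 for Pou2af1 in the same comparison. The list's median was −0.16. Of its other members, Cxcr5, which leads B cells to follicles, had means of 2996 ± 761, 3615 ± 809, 4321 ± 1623 and 2421 ± 558 (n = 4 each), and Btk, the kinase below the B cell receptor, 1959 ± 436, 2183 ± 229, 2198 ± 698 and 2138 ± 297, in cMyc+prePB, cMyc+early, cMyc+lateCD23int and cMyc+lateCD23lo.

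Of 22 paralogs of the 10 factors, 11 reached a mean of at least 10, and 0 passed by limma in any comparison. Their median in cMyc+prePB against the other 3 was −0.08, with 2 at an unadjusted p under 0.05 (11.1% of all genes). The most abundant, the ETS factor Elf1, had means of 4434 ± 651, 6305 ± 891, 6192 ± 718 and 5960 ± 157 (n = 4 each) and a log2 fold change of −0.48 (SE 0.12, adjusted p 0.093 by limma) in cMyc+prePB against the other 3. Of 13 other GC B cell transcription factors 0 passed by limma in any comparison. In cMyc+prePB against the other 3, 4 had an unadjusted p under 0.05 (11.1% of all genes), and the median was −0.12 against 0.003 for all genes. Mef2c, the most abundant, had 17580 ± 3303, 26588 ± 1826, 21982 ± 4090 and 18806 ± 672 and a log2 fold change of −0.61 (SE 0.15, adjusted p 0.16 by limma) in cMyc+prePB against cMyc+early. The 5 plasma cell factors that oppose this program gave 0 calls by limma as well. In cMyc+prePB against the other 3 their median was 0.15, with 1 at an unadjusted p under 0.05 (11.1% of all genes). In cMyc+prePB against cMyc+early it was 0.55 with 4 at that p (8.58% of all genes), and in cMyc+early against cMyc+lateCD23lo −0.74 with 3 (10.3% of all genes), comparisons that share the cMyc+early libraries. Of these Xbp1, which expands the secretory apparatus, stood at 4820 ± 877, 3599 ± 344, 3707 ± 208 and 4250 ± 675, and Irf4 at 729 ± 225, 720 ± 159, 694 ± 257 and 596 ± 266, in cMyc+prePB, cMyc+early, cMyc+lateCD23int and cMyc+lateCD23lo.

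Some of these counts may hold reads of overlapping genes, because the strand setting of the counting is not given in the sources used here. In GENCODE vM21, exons of Bcl6 overlap by 21 bases with the gene Gm37419 on the other strand, those of Foxo1 by 674 bases with Gm20402, and those of Pax5 by 125 and 636 bases with Gm12462 and 5730488B01Rik. On the same strand, exons of Pou2f2 overlap with Mir6537 by 35 bases, and those of Foxp1 with Gm49348 and Gm20696 by 135 and 300 bases.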

How the data were processed

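Splenic GC B cells were profiled by RNA sequencing of 16 low-input libraries. The deposited values are a signal, namely read counts per gene after the authors scaled each library by its own size factor, on GRCm38. The submitters' processing notes name Trimmomatic 0.36, STAR 2.5.2a, RSEM 1.2.31, DESeq2 1.20.0 and R 3.5.1. Columns were matched to libraries through the sample labels, and no column was left over. Division by the value of 1 read gave whole reads for 100% of values (tolerance 0.001). Here limma 3.58.1 (R 4.3.3, trended prior) was fitted to log2(normalized count + 1), which understates changes of low genes, for 12505 genes (mean of 10 or more) in all 16 libraries, without a replicate block. Benjamini-Hochberg adjustment ran over all genes tested, with a threshold of 0.05. On recovered reads edgeR 4.0.16 (quasi-likelihood) and DESeq2 1.42.0 were run as alternatives, beside other pseudocounts, filters, scalings, a replicate block and each library left out in turn. The tests were checked on simulated data. Some listed genes are not reported here. P-values measure only the spread between libraries, since the labels do not state separate animals. The 10 factors and the gene lists were chosen with earlier results of these data known. Genes named were the 10 factors, list members with an adjusted p under 0.05 or among the 4 of highest mean in their list, and the genes most correlated with a factor (the 3 closest to Bcl6 and the closest to each other factor). Prdm1 was chosen after its values were seen, and Jchain passed as a marker. Exon lengths and overlaps are from GENCODE vM21, and the promoter windows from RefSeq.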

Additional observations from a re-analysis of the deposited data

Results flagged for a closer look

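Among 40 groups of 4 libraries, 10 factors in 4 subpopulations, 1 held a library set apart from the others. Ets1 in cMyc+prePB replicate 4 stood at 7745.728 normalized counts against a median of 10420 in the other 3 libraries, and its gap made up 0.842 of the group's range, above Dixon's 95% critical value for 4 samples. Chance gives about 1 such group in 20. Ets1 was lowest in cMyc+prePB with or without this library, as all 4 libraries lay below the other 12.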

How the results depend on the processing

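No factor was called with a pseudocount of 0.5 or 5, another filter on low values, another scaling, no trend in the prior, only the groups compared in the fit, edgeR without the block, or without any single library (range 0 to 0 called in each comparison). DESeq2 called 1 factor in each of 3 comparisons, Pou2af1 in cMyc+early against cMyc+lateCD23lo, Bcl6 in cMyc+prePB against cMyc+lateCD23lo and Ets1 in cMyc+prePB against the other 3 subpopulations. The replicate numbers are shared by the groups, but the labels do not say that a number marks the same animals. Deviations of libraries of the same number had a mean r of 0.05 over 24 pairs, 5 of them over 0.1, against −0.02 for different numbers. Of 16 libraries, 11 were closest to their own number among the 4 replicate numbers. What libraries of a number share was not tested, and the calls differed with and without the block. With the replicate block limma called 1 factor in the multigroup comparison (Foxp1), 2 in cMyc+prePB against cMyc+lateCD23int (Ets1 and Foxp1), 1 against cMyc+lateCD23lo (Bcl6) and 3 against the other 3 (Bcl6, Ets1 and Foxp1), and edgeR with the replicate block called 1 (Foxp1), 1 (Bcl6) and 3 (Bcl6, Ets1 and Foxp1) in the last 3 of these. In cMyc+prePB against the other 3, limma with the replicate block called 211 of all genes against 39 without it.

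Over the 20 log2 fold changes of the factors in the 2 comparisons described for each, 529 alternative values kept their direction and side of the threshold, 8 kept the direction and passed it, and 13 turned. For cMyc+early against cMyc+lateCD23lo, Ikzf1 turned to 0.0019 on rescaling to a common total, to 0.0348 on quantile normalization, and to 0.0326, 0.0234 and 0.017 without cMyc+early replicate 1, cMyc+early replicate 3 and cMyc+lateCD23lo replicate 1 (range without 1 library −0.1555 to 0.0326). Ebf1 turned to −0.0295 and −0.0281 (range −0.0295 to 0.238), and Ets1 to −0.0593 and −0.079 (range −0.079 to 0.1807), without cMyc+early replicate 1 and cMyc+lateCD23lo replicate 2. For cMyc+prePB against the other 3, Pou2af1 turned to −0.0225 without cMyc+prePB replicate 2 (range −0.0225 to 0.0924), and Pou2f2 to −0.0273, −0.0179 and −0.0015 without cMyc+prePB replicate 3, cMyc+prePB replicate 4 and cMyc+lateCD23int replicate 1 (range −0.0273 to 0.1198). In that comparison Ets1 ranged from −0.69 to −0.53, Bcl6 from −0.70 to −0.42 and Foxp1 from −0.88 to −0.49.

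Of the partner and target genes, 4 were called in cMyc+prePB against the other 3 by limma, where 0.312% of all genes were. There were 2 calls with no filter on low values, no trend in the prior or edgeR, and 7 with DESeq2. The replicate block gave 11, edgeR with the replicate block 10, and fits without 1 library between 2 and 5. In cMyc+early against cMyc+lateCD23lo 3 were called by limma, where 0.28% of all genes were. There were 7 with the replicate block, 6 with DESeq2 and between 1 and 4 without 1 library. The number of all genes called in cMyc+prePB against the other 3 ranged from 27 to 225 over the settings that kept all libraries, in cMyc+early against cMyc+lateCD23lo from 20 to 170, and in the multigroup comparison from 25 to 265. The causes were not tested. Levels per kb of the longest transcript were 581 for Bcl6, 1198 for Ebf1, 333 for Pou2f2, 951 for Ikzf3, 853 for Foxp1 and 2750 for Ets1, in place of values per kb of all exons. The 4 libraries per group limit what can be called, and the intervals printed show the differences still possible.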
